A study of Mus musculus with 16 samples.

Results

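The ERVL-MaLR copies described here were the annotated genomic copies of this retrotransposon family that drew at least 5 reads in 2 or more of the 16 libraries. The rule took 108808 of the 485114 ERVL-MaLR copies in the repeat table, or 22.4%. By the same rule 1035541 of the 4929385 repeat copies of all families were taken. Read number alone chose the copies, so their presence in the set is a description and not a finding. Of the copies taken, 27760 (25.5%) lay outside every gene span and 81048 overlapped a span.

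The libraries held RNA bound to chromatin of mouse embryonic stem cells (line E14TG2a), kept in medium with LIF (1000 U per ml), the MEK inhibitor PD0325901 (1 µM) and the GSK3 inhibitor CHIR99021 (3 µM). The 8 groups ectopically expressed KDM4A FL, KDM4A del-IDR, KDM4B FL, KDM4B del-IDR, KDM6A FL, KDM6A del-IDR, KDM6B FL or KDM6B del-IDR, each in 2 libraries. FL is the full-length histone demethylase and del-IDR the same protein without an intrinsically disordered region. The titles write del-cIDR, and the labels used here give neither the residues removed nor the promoter of the constructs. Since a construct was present in all groups, a contrast compares the deleted with the full-length form of 1 demethylase, and no group without a construct was analysed here. The labels do not say whether both libraries of a group stem from separate cultures, and p-values then measure only how much these samples vary, which may be technical.

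ERVL-MaLR elements are mammalian retrotransposons related to ERVL retroviruses, with long terminal repeats (LTRs) but without the full set of retroviral genes, and in mouse they include the MT and ORR1 groups. Their LTRs carry promoter signals, and many mouse transcripts of the oocyte and the early embryo start in MT LTRs. KDM4A and KDM4B remove methyl groups from H3K9 and H3K36, and KDM6A and KDM6B from H3K27. H3K9 methylation, set by enzymes such as SETDB1 and SUV39H1, is one of the marks that keep LTR elements silent.

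In 954 genes of the gene table the first base lay within an ERVL-MaLR copy, and in 697 of them (73.1%) copy and gene were on the same strand. The copy had passed the read rule in 350 of the 954. The starts of 5 of the 954 genes are shown because they let the LTR be seen where a gene begins. Each is a RefSeq promoter of GRCm38.p6, read on the strand of the gene from 250 bases before to 50 after its start, and capitals mark the bases covered by the copy. The copy was placed by its distance from the gene start on GRCm39, in genes whose span is as long in both builds, so its edges rest on that match. Gm15412, a noncoding gene that runs antisense within Tenm4, is at chr7:96341915-96342214 on the minus strand. C330024D21Rik is at chr5:67463648-67463947 on the plus strand, and Gm3143 at chr3:34716613-34716912 on the minus strand. Gm4027 at chr12:87618659-87618958, on the plus strand, and Gm21319 at chr12:87775706-87776005, on the minus strand, belong to a cluster of related genes. In Gm4027 the RefSeq start lay 40 bases downstream of the GENCODE start, so its printed start lies beyond the end of the copy. The copy passed the read rule in Gm15412 and C330024D21Rik, but not in Gm3143, Gm4027 and Gm21319.
Gm15412: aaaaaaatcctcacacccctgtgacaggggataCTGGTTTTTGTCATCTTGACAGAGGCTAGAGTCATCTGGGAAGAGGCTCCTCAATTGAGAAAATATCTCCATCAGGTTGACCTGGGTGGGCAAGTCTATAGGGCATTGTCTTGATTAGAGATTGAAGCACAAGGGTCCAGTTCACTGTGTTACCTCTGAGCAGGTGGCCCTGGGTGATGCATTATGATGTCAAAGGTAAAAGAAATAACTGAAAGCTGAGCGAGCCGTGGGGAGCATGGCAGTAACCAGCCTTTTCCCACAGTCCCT
C330024D21Rik: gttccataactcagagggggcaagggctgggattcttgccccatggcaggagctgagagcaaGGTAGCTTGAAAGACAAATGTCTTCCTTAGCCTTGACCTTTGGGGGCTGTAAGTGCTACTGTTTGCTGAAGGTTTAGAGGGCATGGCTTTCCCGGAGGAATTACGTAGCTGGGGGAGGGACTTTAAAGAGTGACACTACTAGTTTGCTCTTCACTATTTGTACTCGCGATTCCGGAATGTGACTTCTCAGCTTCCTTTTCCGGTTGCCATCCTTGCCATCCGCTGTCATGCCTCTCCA
Gm3143: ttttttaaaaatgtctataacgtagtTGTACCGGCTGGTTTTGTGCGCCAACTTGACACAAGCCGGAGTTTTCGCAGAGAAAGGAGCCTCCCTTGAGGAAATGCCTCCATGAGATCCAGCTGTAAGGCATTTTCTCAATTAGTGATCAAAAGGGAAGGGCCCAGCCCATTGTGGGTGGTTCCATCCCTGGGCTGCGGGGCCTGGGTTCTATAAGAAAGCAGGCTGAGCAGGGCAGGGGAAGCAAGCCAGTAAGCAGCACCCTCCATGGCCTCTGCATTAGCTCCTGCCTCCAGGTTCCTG
Gm4027: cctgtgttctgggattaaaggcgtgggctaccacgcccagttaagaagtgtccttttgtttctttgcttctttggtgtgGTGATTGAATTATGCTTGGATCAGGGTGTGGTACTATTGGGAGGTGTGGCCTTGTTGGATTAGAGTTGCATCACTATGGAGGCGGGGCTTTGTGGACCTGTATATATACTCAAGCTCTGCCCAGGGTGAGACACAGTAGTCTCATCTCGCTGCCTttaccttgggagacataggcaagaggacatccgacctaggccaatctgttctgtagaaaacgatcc
Gm21319: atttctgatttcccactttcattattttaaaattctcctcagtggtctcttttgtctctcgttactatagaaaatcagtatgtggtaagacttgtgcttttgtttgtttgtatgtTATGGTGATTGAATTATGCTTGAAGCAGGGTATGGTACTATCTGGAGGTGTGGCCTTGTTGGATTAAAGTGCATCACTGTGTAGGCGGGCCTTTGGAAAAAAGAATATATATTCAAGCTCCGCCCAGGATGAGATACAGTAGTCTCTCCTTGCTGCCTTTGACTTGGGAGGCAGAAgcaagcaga

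A RefSeq promoter was matched for 194 of these genes, 149 with the copy on the strand of the gene, and 82 of the 149 had RefSeq and GENCODE starts within 50 bases of each other. Among the 82 promoters 15 (18.3%) held the letters CAACTTGACA on the strand of the gene, against 38 of all 32851 promoters in the table (0.116%). TTCTATAA, which overlaps the usual form of a TATA box, stood in 12 of the 82 (14.6%) against 0.469% of all. Both stood in 10 of the 82 promoters (12.2%) and in 16 of all (0.0487%), at a spacing of 139 to 173 bases with a median of 152. In Gm3143 they lay 202 and 45 bases before the start. Another stretch, GGTGTGGCCTTGTT, stood in 13 of the 82 (15.9%) against 53 of all (0.161%), and 0 of these 13 held CAACTTGACA. Gm4027 had it 129 and Gm21319 had it 89 bases before the RefSeq start. That start lay 40 bases downstream of the GENCODE start in Gm4027, while in Gm21319 both starts were the same. On the other strand the 82 promoters held CAACTTGACA in 0, TTCTATAA in 1 and GGTGTGGCCTTGTT in 0 cases. The letters were chosen after shared stretches had been seen in these promoters, and a match is a description, not a binding site.

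Copies that passed the read rule were longer than the family as a whole, with a median length of 302 bases against 201. The share of copies taken fell with distance from genes, from 43.1% of copies touching an exon and 38.8% of copies in introns to 18.3% of those under 10 kb downstream and 11.3% of those under 10 kb upstream of a gene. It was 7.21% at 10 to 100 kb and 3.19% at 100 kb or more. Outside gene spans the median copy taken had a mean level of 0.435 CPM (edgeR's usual scaling of counts, here to the effective gene reads of a library) per kb, and inside 1.59 CPM per kb. Reads were concentrated, since the top 1% of copies taken held 24.2% of the reads outside (278 copies) and 15.0% inside (811 copies). Near the threshold, the 10213 copies with at least 5 reads in exactly 2 libraries had a median of 31 reads over all libraries. The 20872 copies with that many in exactly 1 library had a median of 19 and were not taken. Copies taken held 98.0% of all ERVL-MaLR reads, and 37879 had at least 5 reads in all 16 libraries.

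Of the 76021 copies taken that lay in the span of exactly 1 gene, 35.7% were on the strand of that gene, against 42.0% of the 118828 copies not taken. They fell in 11804 genes with a median of 3 copies a gene, and the gene with most was Galnt17 with 186. Outside genes they formed 11947 runs of copies less than 10 kb apart, of which 6301 held 1 copy. The longest run held 50 copies, at 35858634 to 36010978 of chromosome 1 (GRCm39, as are all positions outside the promoter sequences). The counting ignored strand, per the file headers, so reads from an LTR's own promoter and reads from a gene or transcript that runs through the copy cannot be told apart.

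Libraries held 32739117 to 54890756 reads on genes, 20313223 to 47548396 on repeats and 1957270 to 5274306 on ERVL-MaLR copies, which were 9.07% to 11.1% of repeat reads. Between the libraries of a group log2 levels of copies taken correlated at 0.917 to 0.956 (57357 to 84252 copies a group). Kdm6a stood at 415 to 441 CPM in the KDM6A groups and at 95.7 to 156 elsewhere, Kdm4a was highest in KDM4A del-IDR (291 and 300 CPM), but in KDM4A FL it had 217 and 205.5 CPM, below the 250.2 to 272 CPM of the 4 KDM6B libraries. Kdm4b had 85.4 to 103 CPM in the KDM4B groups and 74.9 to 103 CPM elsewhere, and Kdm6b 78.0 to 96.3 CPM in the KDM6B groups and 69.1 to 81.4 CPM elsewhere. The level of the targeted gene therefore does not check the labels KDM4A FL, KDM4B and KDM6B, and groups are named here as labelled. The 8 embryonic stem cell markers summed to 1790 to 2692 CPM in every library. KDM4B del-IDR (1790 and 1867 CPM) lay below KDM4B FL (2159 and 2239 CPM). KDM6A del-IDR (2156 and 2275 CPM) lay above KDM6A FL (2042 and 2112 CPM). KDM6B del-IDR (2678 and 2692 CPM) also lay above its FL (2563 and 2615 CPM), and the KDM4A groups overlapped. Single ones differed in spread, with Sox2 at 79.1 to 119 CPM, Pou5f1 at 52.9 to 233 CPM and Dppa5a at 50.4 to 372 CPM. Fibroblast markers summed to 3.49 to 8.15 CPM, with Dcn and Lum at or near 0.

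Summed over all copies outside gene spans, including those below the read rule, ERVL-MaLR RNA differed more than 2-fold between groups. It stood at 6261 and 6375 CPM in KDM4A del-IDR and at 12004 and 12203 CPM in KDM4A FL. KDM4B del-IDR had 11234 and 11399 CPM against 13971 and 14122 CPM in KDM4B FL. In both pairs each deleted library lay below each full-length library. The 2 libraries of KDM6A del-IDR had 13484 and 13721 CPM, above the 12523 and 12715 CPM of KDM6A FL. KDM6B del-IDR had 6505 and 6500 CPM against 7315 and 7180 CPM in KDM6B FL, so that both KDM6B groups and KDM4A del-IDR formed the low end. In this order of 8 groups, KDM4A del-IDR and KDM6B del-IDR did not differ beyond their spread (log2 difference 0.04 ± 0.02 SE, adjusted p = 0.0903, edgeR quasi-likelihood test with Benjamini-Hochberg adjustment), nor did KDM6A del-IDR and KDM4B FL (0.05 ± 0.02, adjusted p = 0.115). All other neighbours did, and the test across the 8 groups gave an adjusted p of 2.05e-13.

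Inside gene spans the same family had 59611 and 60633 CPM in KDM4A del-IDR and 72711 and 74252 CPM in KDM4A FL. KDM4B del-IDR had 72601 and 73860 CPM, and KDM4B FL 82149 and 83111 CPM. Again the deleted libraries lay below the full-length ones without overlap. KDM6A del-IDR had 84999 and 87473 CPM and KDM6A FL 81665 and 82284 CPM, the reverse order. KDM6B del-IDR was lowest of all groups with 42448 and 42452 CPM, against 55863 and 54627 CPM in KDM6B FL. KDM4B del-IDR and KDM4A FL did not differ beyond their spread (adjusted p = 0.856, edgeR), nor did KDM6A FL and KDM4B FL (adjusted p = 0.843) or KDM4B FL and KDM6A del-IDR (adjusted p = 0.0505).

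**Figure D1:**
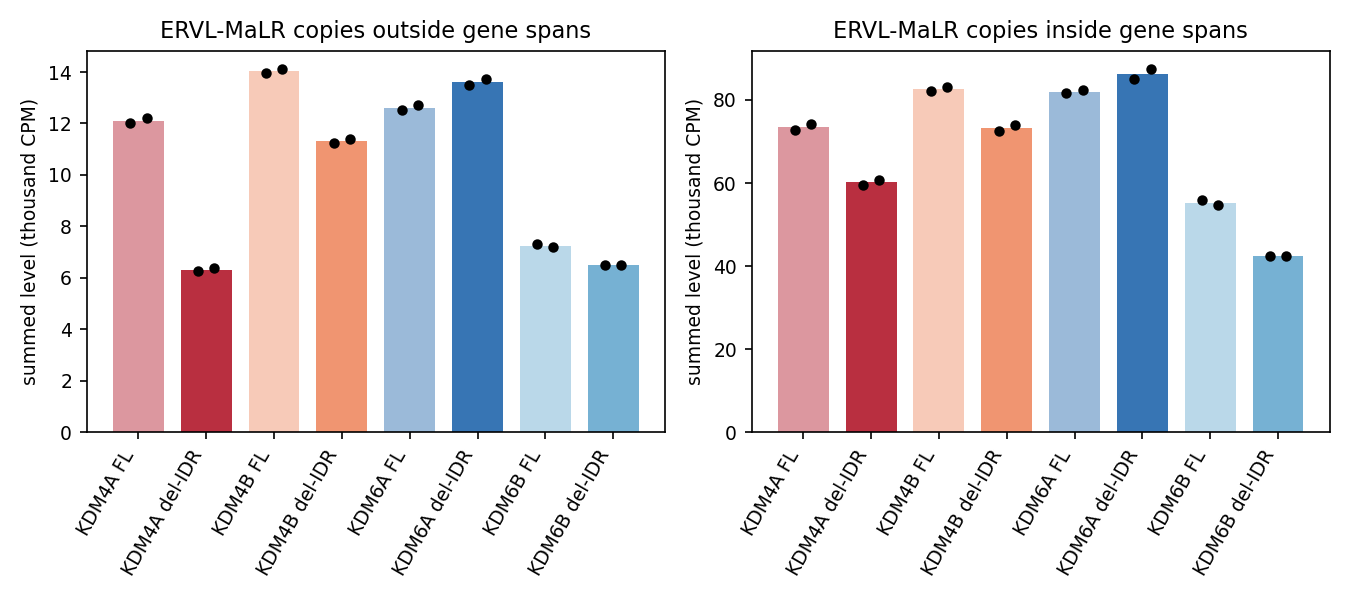
Summed level of all ERVL-MaLR copies outside (left) and inside (right) gene spans, in CPM divided by 1000; bars are the mean of the 2 libraries of a group and points the libraries. Outside, both KDM4A del-IDR libraries (6261 and 6375 CPM) sit far below the KDM4A FL libraries (12004 and 12203 CPM), and both KDM6B groups are low; inside, KDM6B del-IDR is lowest.

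Deletion of the disordered region went with less ERVL-MaLR RNA in KDM4A, KDM4B and KDM6B cells and with slightly more in KDM6A cells. Outside gene spans the sum fell in KDM4A by 0.94 ± 0.02 on the log2 scale (SE, 2 against 2 libraries, adjusted p = 2.1e-12, edgeR). The fall was 0.31 ± 0.02 in KDM4B (adjusted p = 1.0e-07) and 0.16 ± 0.02 in KDM6B (adjusted p = 2.1e-05), and in KDM6A the sum rose by 0.11 ± 0.02 (adjusted p = 0.00457). Inside, the changes were −0.29 ± 0.02 in KDM4A (adjusted p = 9.8e-08), −0.17 ± 0.02 in KDM4B (adjusted p = 2.0e-05), −0.38 ± 0.02 in KDM6B (adjusted p = 3.2e-08) and 0.07 ± 0.02 in KDM6A (adjusted p = 0.0306, edgeR). The KDM6A call inside was lost without any of 3 of its 4 libraries and the call outside without either of 2.

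These shifts were not particular to ERVL-MaLR. Of the 114 sums by family and location that were tested, 72.8% fell and 4.39% rose in KDM4A, 52.6% and 0.00% in KDM4B, 48.2% and 2.63% in KDM6B, and 0.877% and 15.8% in KDM6A. The median family outside genes stood at −0.96 in KDM4A, −0.25 in KDM4B, −0.08 in KDM6B and 0.12 in KDM6A. Among 54 families outside, ERVL-MaLR ranked 29th from the lowest in KDM4A, 24th in KDM4B, 20th in KDM6B and 25th in KDM6A. All levels are relative to gene reads. Scaled to the ERCC spike-in reads, which the labels do not mention, the median gene itself moved by −0.65, −0.19, −0.22 and −0.38 on the log2 scale in KDM4A, KDM4B, KDM6A and KDM6B. On that scale the KDM6A sums were below FL, at −0.11 outside and −0.14 inside, and neither passed the test. With library sizes taken from the repeat family sums instead, the changes inside were 0.011 in KDM4A, 0.0033 in KDM4B, −0.047 in KDM6B and 0.013 in KDM6A, none past the test (edgeR). Outside on that scale KDM4A had −0.64 and KDM4B −0.13, both past the test, KDM6A 0.048, not past it, and KDM6B rose by 0.18 (adjusted p = 3.9e-05, edgeR). Set against the other repeat reads of the same location, KDM4A fell by 0.70 outside and 0.10 inside and KDM6B by 0.17 and 0.12, while no KDM4B or KDM6A sum passed.

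The KDM4A effect minus the KDM4B effect was −0.63 ± 0.03 outside genes (test of the difference, adjusted p = 1.3e-08, edgeR) and −0.12 ± 0.03 inside (adjusted p = 0.0049). KDM6A and KDM6B differed by 0.26 ± 0.03 outside (adjusted p = 7.9e-06) and by 0.45 ± 0.03 inside (adjusted p = 1.9e-07, edgeR). With library sizes from repeat family sums KDM6A minus KDM6B turned to −0.13 outside (adjusted p = 0.0076) and was 0.059 inside, and KDM4A minus KDM4B was 0.0076 inside, the last 2 not past the test (edgeR). KDM6A minus KDM6B outside also lost its call against the other repeat reads (0.15) and at 100 kb or more from genes (0.090).

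The share of ERVL-MaLR reads that lay outside gene spans was 9.50% and 9.51% in KDM4A del-IDR against 14.2% and 14.1% in KDM4A FL. In KDM6B the order was opposite, with 13.3% and 13.3% in del-IDR against 11.6% and 11.6% in FL. KDM4B (13.4% and 13.4% against 14.5% and 14.5%) moved as KDM4A did, by less. On the log2 ratio of outside to inside reads, the change was −0.65 ± 0.02 in KDM4A (adjusted p = 1.7e-10, limma) and −0.14 ± 0.02 in KDM4B (adjusted p = 5.0e-05). It was 0.22 ± 0.02 in KDM6B (adjusted p = 1.6e-06) and 0.04 ± 0.02 in KDM6A, which did not pass (adjusted p = 0.206). Of the 39 families with enough reads the ratio fell in 76.9% in KDM4A and 33.3% in KDM4B, and rose in 53.8% in KDM6B. It rose in 5.13% in KDM4A and 0.00% in KDM4B, fell in 2.56% in KDM6B, and moved in 0.00% either way in KDM6A. Averaged over the 4 demethylases the ratio changed by −0.13, which an exact two-sided permutation within demethylases did not separate from 0 (p = 0.258, 1296 labelings, smallest possible p 0.00154).

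The change varied with distance to genes, although differences between position classes were not tested. In KDM4A the change of summed ERVL-MaLR reads was −0.19 ± 0.02 for copies touching an exon and −0.30 ± 0.02 in introns. It was −0.80 ± 0.02 under 10 kb upstream, −0.92 ± 0.02 under 10 kb downstream, −1.04 ± 0.02 at 10 to 100 kb and −1.34 ± 0.05 at 100 kb or more from a gene. KDM4B stood at −0.10 ± 0.02 at exons, −0.18 ± 0.02 in introns, −0.17 ± 0.02 downstream and −0.30 ± 0.02 upstream. Farther out it had −0.52 ± 0.02 at 10 to 100 kb and −0.79 ± 0.05 at 100 kb or more. Its downstream copies thus did not fall more than its intronic ones, unlike in KDM4A. All 6 position classes passed the test in KDM4A and in KDM4B (edgeR). Of the 291 sums by family and position, 68.7% fell and 3.09% rose in KDM4A, 47.4% and 1.37% in KDM4B, 0.00% and 9.97% in KDM6A, and 34.4% and 3.09% in KDM6B. KDM6B did not fall more with distance from genes. It stood at −0.20 ± 0.02 at exons, −0.40 ± 0.02 in introns, −0.22 ± 0.02 downstream and −0.13 ± 0.02 upstream, with no call at 10 to 100 kb (−0.05 ± 0.02, adjusted p = 0.112) or beyond (0.02 ± 0.05, adjusted p = 0.799). KDM6A lay between 0.04 and 0.11 in all 6 classes, and exon-touching copies and those at 100 kb or more did not pass. The median family had the same order in KDM4A, at −0.15 for exons, −0.43 for introns and −1.38 at 100 kb or more.

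**Figure D2:**
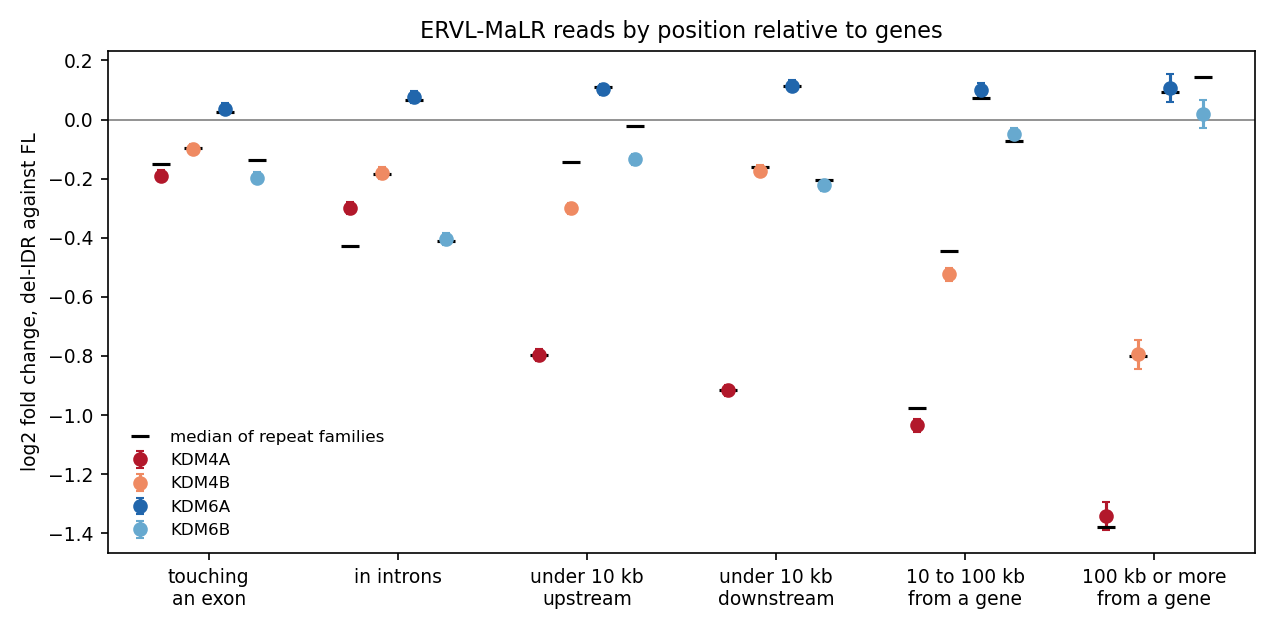
Log2 fold change of summed ERVL-MaLR reads, del-IDR against FL, by position relative to genes; points with bars are the change ± SE in each demethylase, and black dashes the median of all repeat families. KDM4A falls from −0.19 at exons to −1.34 at 100 kb or more, while KDM6B stands at −0.20 at exons, −0.40 in introns and 0.02 at 100 kb or more.

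The fall spread over the genome. Outside genes, summed reads were lower in both del-IDR libraries than in both FL libraries on all 20 chromosomes in KDM4A. The range was −1.19 on chromosome 16 to −0.47 on chromosome 13. The same held on all 20 in KDM4B, from −0.86 on chromosome 6 to −0.03 on chromosome 13, with a median of −0.30. In KDM6A 19 chromosomes were higher without overlap and in KDM6B 19 were lower. Inside genes chromosome 6 was again the lowest in KDM4B, at −0.59 against a median of −0.13. The reason why chromosome 6 stood apart in KDM4B was not tested. Of 644 runs of copies outside genes with at least 5 tested copies, all copies pointed down in 382 in KDM4A and in 182 in KDM4B, and all pointed up in 17 and 61. These counts describe signs, and copies of a run can share a transcript.

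Single copies were tested with those of all families, and 15157 of the copies outside and 62130 of those inside had enough reads. Outside genes in KDM4A, 4180 copies fell and 137 rose, which is 27.6% and 0.904% of those tested, against 27.2% and 1.58% of the copies of all families. The median tested copy changed by −1.22. Inside, 10334 fell and 2128 rose (16.6% and 3.43%, against 13.6% and 3.49% of all families), with a median of −0.40. Under ERCC scaling the split became 7614 lower and 42 higher outside and 26730 lower and 422 higher inside. Without any 1 library of the contrast there were 2636 to 3149 falls and 76 to 89 rises outside and 6548 to 7570 falls and 1250 to 1381 rises inside, and 1673 of the 4317 calls outside (38.8%) held in every such fit.

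In KDM4B 885 copies outside fell and 288 rose, 5.84% and 1.90% of those tested against 7.37% and 1.62% for all families. Inside, 2300 fell and 750 rose, where 2.78% and 0.885% of all families did. ERCC scaling gave 1404 and 220 outside and 4697 and 453 inside. Without any 1 library 396 to 517 falls and 127 to 142 rises were called outside, and 982 to 1192 and 313 to 344 inside. The KDM6B calls were mostly inside genes, with 3363 falls and 96 rises (all families 4.15% and 0.190%), against 203 falls and 72 rises outside (all families 1.26% and 0.979%; under ERCC scaling 1345 and 70 outside). The inside falls became 15562 under ERCC scaling and 1222 to 1877 without any 1 library, and the outside falls 65 to 115 without any 1. KDM6A had the fewest calls, 25 rises and 7 falls outside (all families 0.225% and 0.0592%) and 57 rises and 16 falls inside (all families 0.0730% and 0.0330%). ERCC scaling turned these to 6 rises and 30 falls outside and to 13 and 67 inside, and without 1 library 4 to 11 rises and 0 to 1 falls were left outside. The shares called were of the order of those for all families, and are no result about ERVL-MaLR. The copies passed a filter on low reads partly through the group where they were high, so the counts support no statement on direction by themselves.

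**Figure D3:**
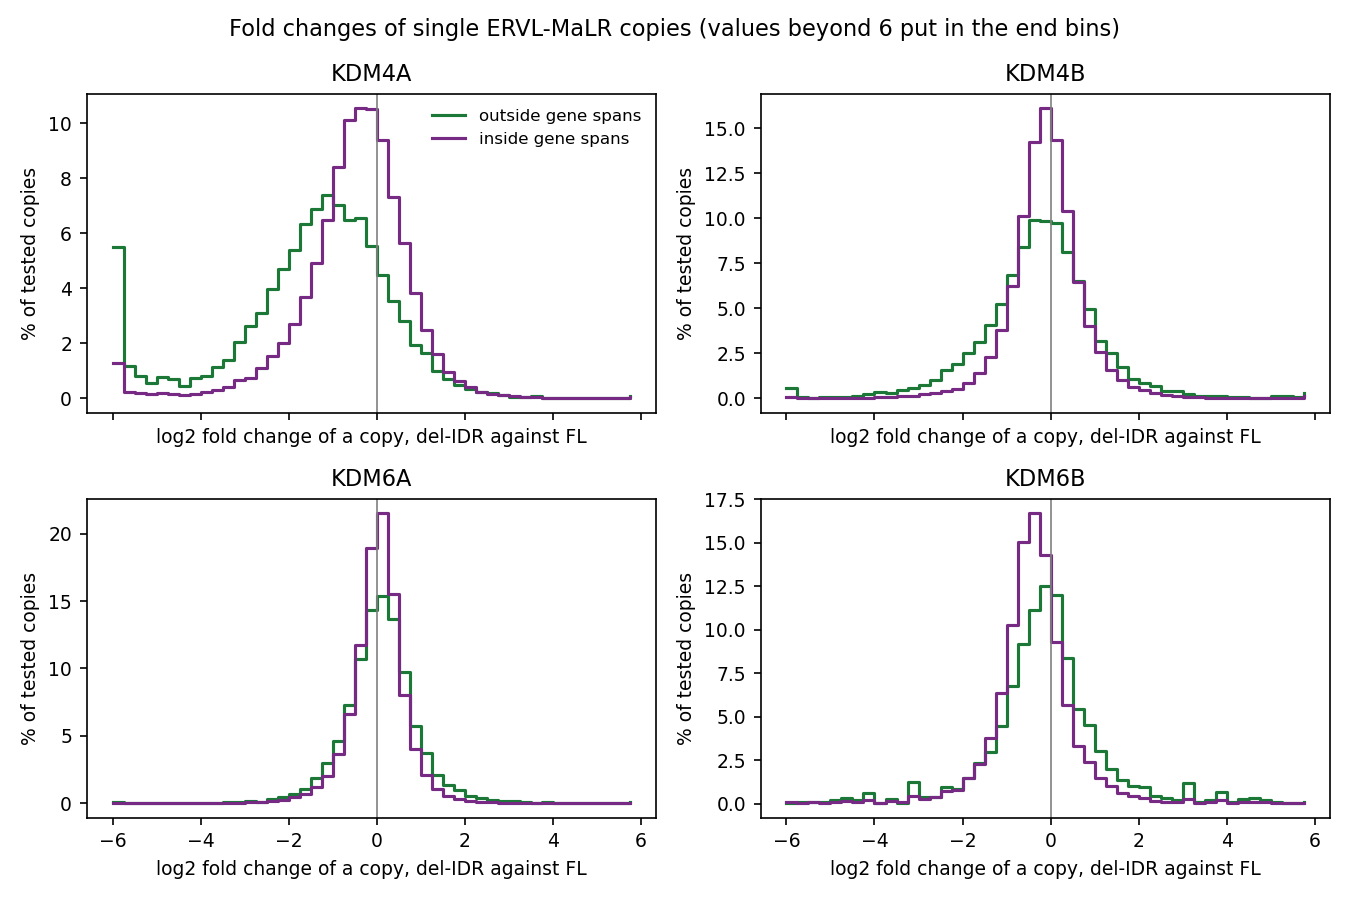
Distribution of the log2 fold change of single tested ERVL-MaLR copies, del-IDR against FL, outside (green) and inside (purple) gene spans, in % of tested copies; values beyond 6 are put in the end bins, which hold copies with 0 reads in 1 group. The KDM4A curve outside genes is centred at −1.22 and the curve inside at −0.40, while the KDM6A curves are narrow around 0.

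Some copies fell in both H3K9 demethylases, which share no library. Outside genes 710 copies did. They were 80.2% of the 885 KDM4B falls, where 27.6% of all tested copies outside fell in KDM4A. They were also 16.99% of the 4180 KDM4A falls, where 5.84% of all tested copies outside fell in KDM4B. Another 23 copies fell in KDM4A but rose in KDM4B. Inside genes 1608 fell in both, 69.9% of the KDM4B falls, where 16.6% of all tested copies inside fell in KDM4A. They were 15.6% of the KDM4A falls, where 3.70% of all tested copies inside fell in KDM4B. Of the 203 KDM6B falls outside, 131 (64.5%) were KDM4A falls too, but so were 46 of the 72 KDM6B rises outside. These overlaps were neither tested nor compared with other families, and are no result about ERVL-MaLR.

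Of the copies considered for naming, which excluded chromosome 18 here and below, those with the highest levels lay close to genes. The highest outside was a copy of 938 bases at 66814121 to 66815058 of chromosome 13, 2934 bases downstream of the zinc finger gene Zfp640. It had 54.3 and 51.1 CPM in KDM4A del-IDR, 50.9 and 43.1 CPM in KDM4A FL, 56.2 and 58.1 CPM in KDM4B del-IDR and 45.6 and 42.9 CPM in KDM4B FL. In KDM6B it had 38.1 and 33.5 CPM in del-IDR and 52.2 and 53.0 CPM in FL. It fell in KDM6B (−0.56 ± 0.10, adjusted p = 0.00016, edgeR) and rose in KDM4B (0.37 ± 0.09, adjusted p = 0.0103), so it went with the family sum in KDM6B and against it in KDM4B. The highest inside, at 108225195 to 108226503 of chromosome 5, touched an exon of Mtf2, which encodes an accessory subunit of Polycomb complex 2. It stood at 119 to 133 CPM in the 4 KDM4A libraries, without a call, and at 59.5 and 62.2 CPM in KDM6B del-IDR against 82.8 and 89.1 CPM in KDM6B FL (−0.50 ± 0.09, adjusted p = 1.5e-05). A copy of an intron of Mllt10, which encodes a partner of the H3K79 methyltransferase DOT1L, had 34.2 and 34.8 CPM in KDM4A del-IDR and 68.4 and 60.6 CPM in KDM4A FL. It fell by 0.90 ± 0.10 there and by 0.64 ± 0.11 in KDM4B. A copy touching an exon of Orc3, a gene of the origin recognition complex, rose in KDM4A, from 52.5 and 49.8 CPM to 84.6 and 85.1 CPM (0.73 ± 0.10, adjusted p = 3.6e-09).

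The largest falls in KDM4A were of copies with no read in either del-IDR library. At 59158232 of chromosome 15, in an intron of Gm36617, the reads were 0 and 0 against 96 and 93 in FL, at least 43.3-fold lower at a floor of 3 reads over the group. At 11941611 of chromosome 8, in Gm39132, they were 0 and 0 against 66 and 83, at least 34.2-fold lower. The 2 hosts are gene models that fell too (−4.66 and −3.89). Outside genes, a copy at 7992128 of chromosome 16 went from 46 and 93 reads to 0 and 0 (at least 31.9-fold lower), and a copy at 54893547 of chromosome 6, downstream of Nod1, from 48 and 73 to 0 and 0 (at least 27.7-fold lower). Among rises, in introns of Hspa4l, a heat-shock protein gene, and of Tox2, a gene of HMG-box proteins, copies rose 18.9-fold (32 and 20 reads against 2 and 2) and 17.1-fold (21 and 26 reads against 2 and 2). Outside genes a copy 30543 bases from Dicer1 had 19 and 15 reads against 0 and 0, at least 16.5-fold higher. Bounds and intervals cover counting error only and take reads as independent, although both reads of a pair were counted.

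In KDM4B, a copy at 122755937 of chromosome X, 31820 bases from the nearest gene, had 0 and 0 reads against 54 and 66 in FL, at least 49.3-fold lower. Inside, a copy in an intron of Ccdc7a had 0 and 0 against 51 and 34, at least 34.9-fold lower. The copy of Cyp2j7 at 96085274 of chromosome 4 (0 and 0 against 26 and 26 reads, at least 21.3-fold lower) lost its call without any 1 of the 4 libraries. Among rises, a copy in Unc5cl had 35 and 24 reads against 0 and 1, a ratio of 47.9 (95% counting interval 8.27 to 1924), and one in Syne3 had 35 and 26 against 2 and 0, a ratio of 24.8 (6.57 to 209). A copy 36915 bases from Chd1l had 53 and 59 against 2 and 2 reads, 22.7-fold higher.

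Changes in KDM6A were small, and the largest of them rested on few reads. A copy of 1299 bases at 20968968 of chromosome 4 rose 2.56-fold, with 346 and 399 reads against 129 and 109, and held without any 1 library. A copy in Ak9, an adenylate kinase gene, rose 3.50-fold (125 and 93 reads against 27 and 24) and one in the cadherin gene Cdh4 3.54-fold (84 and 89 against 17 and 23), but these lost the call without 3 and 2 of the libraries. All 6 falls named by the rule lost it without at least 3 of 4. In KDM6B, the largest rise, at 63064992 of chromosome 10, had 73 and 4 reads against 2 and 0 (ratio 35.9, 95% counting interval 9.61 to 302), so that 1 library carried it, and the call was lost without 2 of the libraries.

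The following host genes were picked after their counts of called copies were seen. Tmem132d, a gene of a transmembrane protein at 127858694 to 128510141 of chromosome 5, held 183 copies, of which 166 were tested. Their summed level was 24.5 and 26.8 CPM in KDM4A del-IDR against 132.5 and 132.5 CPM in FL, and 44.5 and 44.8 CPM in KDM4B del-IDR against 294 and 294 CPM in FL. In KDM4A 126 of them fell and in KDM4B 136. KDM6B went the other way from a low level, with 21.7 and 18.997 CPM against 9.25 and 8.80 CPM, and 10 copies rose. The gene itself changed by −2.16 ± 0.08, −2.50 ± 0.08 and 1.47 ± 0.09 in the 3 contrasts.

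Tenm4, which encodes a teneurin, a cell adhesion protein, held 69 copies. They summed to 19.9 and 22.5 CPM in KDM4A del-IDR and to 85.0 and 86.0 CPM in FL, and 49 of 64 tested copies fell. In KDM4B the sums were 73.8 and 71.5 CPM against 168 and 171 CPM, with 33 falls. KDM6A del-IDR was above FL, at 176 and 180 CPM against 92.2 and 93.4 CPM, and 9 copies rose. In KDM6B the groups overlapped (25.2 and 27.4 against 26.7 and 25.4 CPM). In Chst11, a chondroitin sulfotransferase gene with 43 copies, 10 rose in KDM4A (sums 32.2 and 34.6 against 17.6 and 19.4 CPM) and 16 in KDM4B (31.6 and 35.6 against 12.1 and 12.02 CPM).

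Intronic copies moved with their gene but lay lower. Over 54657 copies in introns of 9006 tested genes, the log2 change of copy and gene correlated at r = 0.57 in KDM4B, 0.52 in KDM4A, 0.32 in KDM6A and 0.25 in KDM6B. This is a description, since both values come from the same libraries and copies share genes. The median copy stood below its gene by −0.39 in KDM4A, −0.12 in KDM4B and −0.40 in KDM6B, and above it by 0.04 in KDM6A. In genes that changed by 0 to 0.5, copies had a median of −0.19 in KDM4A (19127 copies) and −0.29 in KDM6B (21208 copies), while in KDM4B they had 0.07 (21675 copies). In KDM4A genes under −2, copies stood at −2.69 (843 copies). Strand made little difference, as copies on the strand of the gene had a median of −0.41 and those on the other strand of −0.39 in KDM4A, and −0.40 and −0.42 in KDM6B. Copies in long noncoding genes had a median of −0.90 in KDM4A (2914 copies, 681 falls) against −0.37 in protein-coding genes (54690 copies, 8769 falls). In KDM6B this order was opposite, at −0.13 and −0.41. These differences of medians were not tested.

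**Figure D4:**
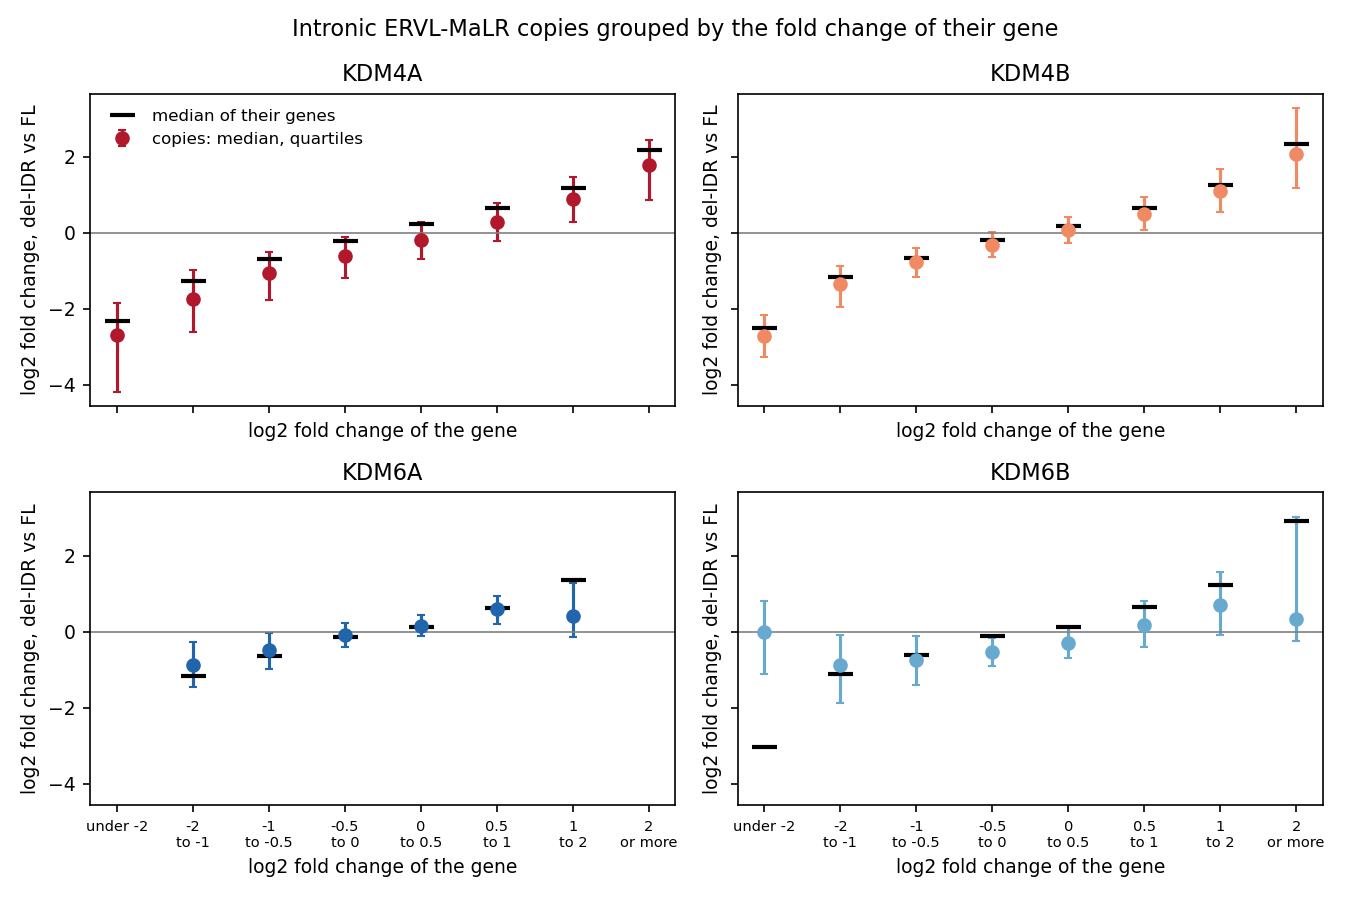
Intronic ERVL-MaLR copies grouped by the log2 fold change of their gene, del-IDR against FL; points are the median copy, bars the quartiles and black dashes the median of the genes (bins under 20 copies left out). In KDM4A and KDM6B the points lie below the dashes in the middle bins, as in genes of 0 to 0.5 with −0.19 and −0.29.

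Genes that start in an ERVL-MaLR copy were examined next, and 483 of the 954 had enough reads. In KDM4A 155 fell and 53 rose, where 25.8% and 24.5% of all genes did, and their median was −0.37 against −0.04 for all genes. In KDM4B 99 fell and 67 rose (all genes 17.5% and 18.6%), in KDM6A 28 and 23 (8.62% and 8.27%) and in KDM6B 61 and 23 (10.7% and 9.87%). Under ERCC scaling the falls and rises became 274 and 6, 136 and 43, 77 and 7, and 169 and 7. By class 315 of the 954 were lincRNA genes, 125 protein-coding and 115 TEC genes (transcripts to be experimentally tested), and 159 had no class in the annotation used.

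Tet1, which encodes an enzyme that oxidises methylated cytosine, begins in the gene table within a copy taken by the read rule. It had 1435 and 1435 CPM in KDM4A del-IDR against 2504 and 2543 CPM in FL (−0.81 ± 0.03), and 1925 and 1938 CPM in KDM4B del-IDR against 2801 and 2811 CPM in FL (−0.54 ± 0.03). In KDM6A it was higher in del-IDR, at 2367 and 2308 against 2081 and 2048 CPM. Reads count over the whole gene, so they do not show which start was used. Folr2, a folate receptor gene, stood at 0.291 and 0.377 CPM in KDM4A del-IDR and at 2.47 and 2.45 CPM in FL (−2.88 ± 0.35), and rose in KDM6A (0.90 ± 0.24). Lamb3, a laminin subunit gene, had 10.8 and 8.97 CPM in KDM4A del-IDR against 3.21 and 2.51 CPM in FL and rose (1.79 ± 0.18), as it did in KDM4B (1.09 ± 0.19) and KDM6B (1.08 ± 0.17).

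Among the genes whose starts were printed, Gm15412 had 1.02 and 0.582 CPM in KDM4A del-IDR and 5.14 and 4.59 CPM in FL (−2.57 ± 0.21). It fell in KDM4B (−1.37 ± 0.16) and rose in KDM6A (1.04 ± 0.16), as copies of Tenm4 around it did, and counts without strand do not separate the 2 genes where they overlap. C330024D21Rik rose in KDM4B, from 9.62 and 8.31 CPM to 24.9 and 24.9 CPM (1.47 ± 0.09), and fell in KDM4A (−0.32 ± 0.08). Gm3143, whose start holds both CAACTTGACA and TTCTATAA, had no call in any contrast (−0.72 ± 0.35 in KDM4A, adjusted p = 0.0865, edgeR).

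The genes at 87532731 to 88308729 of chromosome 12 changed as a block. There 16 genes start in an ERVL-MaLR copy, which passed the read rule only in Gm5788, Gm8300, Gm6803 and Gm2056. The 15 tested genes are protein-coding. They include Gm2016, Gm8332 and Gm5039, members of a family resembling the translation initiation factor eIF1A that is known from the 2-cell embryo. Summed over the cluster they had 99.9 and 93.6 CPM in KDM4A del-IDR against 281 and 276 CPM in FL. In KDM4B the sums were 112 and 117 CPM against 243 and 239 CPM. In KDM6A they were 188 and 187 against 216 and 210 CPM, and in KDM6B 56.9 and 60.4 against 54.7 and 51.8 CPM, so both KDM6B groups were low.

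All 15 fell in KDM4A (−1.89 to −1.05) and 13 of 15 in KDM4B, where the range was −1.77 to −0.50. In KDM6A Gm8300 and Gm8332 fell, and in KDM6B Gm2022 rose (0.40), a call that ERCC scaling turned to 0 rises and 3 falls. ERCC scaling also took the falls in KDM6A from 2 to 9 and those in KDM4B from 13 to 15. Gm4027, whose start was printed, went from 6.29 and 7.73 CPM in KDM4A FL to 2.39 and 3.15 CPM in del-IDR (−1.35 ± 0.21), and Gm21319 from 1.63 and 1.05 to 0.495 and 0.308 CPM (−1.71 ± 0.44). These genes are near copies of each other, reads matching several places were not counted, and the split of reads among them is uncertain. The cluster was picked after its values were seen. Zscan4d, another gene of the 2-cell embryo, fell in KDM4A by 2.44 ± 0.08 and in KDM4B by 1.79 ± 0.07.

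**Figure D5:**
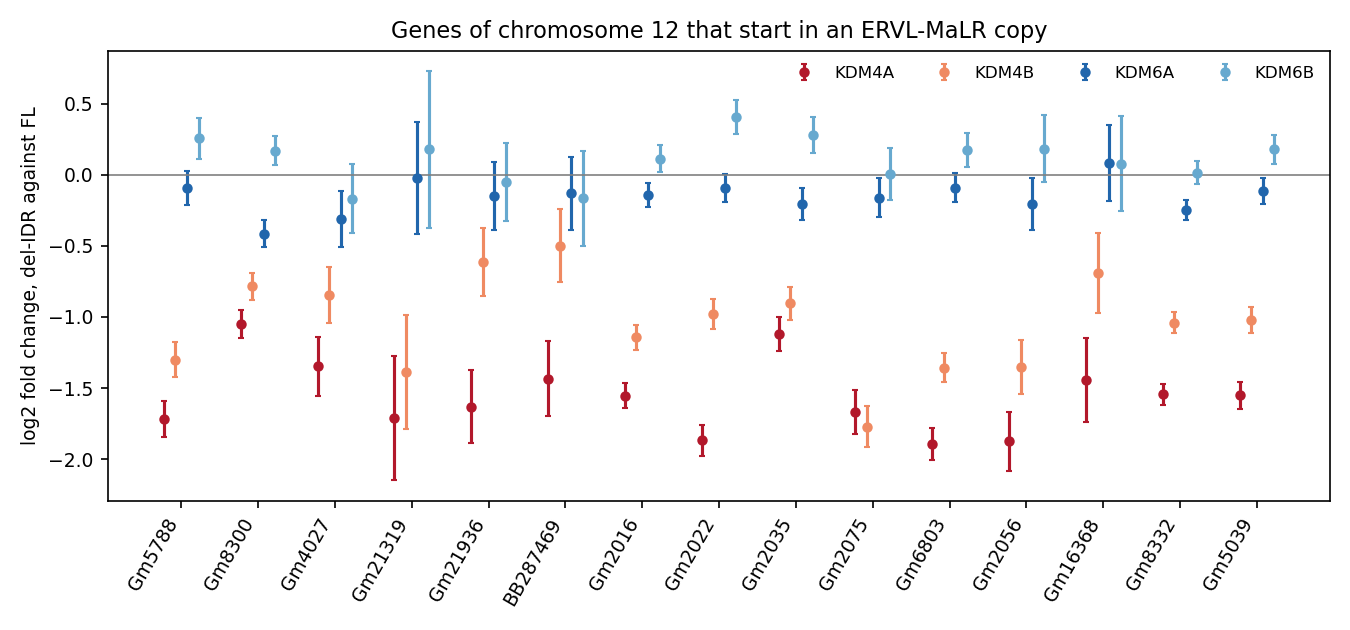
Log2 fold change ± SE, del-IDR against FL, of the 15 tested genes of the chromosome 12 cluster that start in an ERVL-MaLR copy, in the 4 demethylases. All KDM4A points lie between −1.89 and −1.05, and the KDM6A and KDM6B points near 0.

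A list of 47 genes held genes that act on LTR silencing or activation and also Kdm4a, Kdm4b, Kdm6a and Kdm6b. Of the 47, 45 were matched and tested. Reads on the 4 demethylase genes may come from the constructs. In KDM4A 27 rose and 11 fell, in KDM4B 10 and 19, in KDM6A 11 and 8 and in KDM6B 11 and 4. Of all genes tested 24.5% rose and 25.8% fell in KDM4A, 18.6% and 17.5% in KDM4B, 8.27% and 8.62% in KDM6A, and 9.87% and 10.7% in KDM6B. Scaled to ERCC reads these became 3 and 36, 2 and 29, 2 and 24, and 1 and 36. Suv39h1, an H3K9 methyltransferase gene, fell in KDM4A (−1.14 ± 0.07) and in KDM4B (−0.77 ± 0.06) and rose in KDM6A (0.44 ± 0.06). Dppa2, which activates genes of the 2-cell embryo, fell by 1.21 ± 0.07 in KDM4A and 1.09 ± 0.07 in KDM4B. Its partner Dppa4 rose in KDM4A (0.39 ± 0.06) and fell in KDM4B (−0.20 ± 0.05). Duxf3, a double-homeobox gene with at most 1.34 CPM, rose in KDM4A (1.17 ± 0.44, adjusted p = 0.0238, edgeR). Relative to gene reads, genes tied to the 2-cell embryo thus did not move as one in KDM4A. Under ERCC scaling the median gene moved by −0.65 there, more than the rise of Dppa4. Mphosph8, a subunit of the silencing complex HUSH, rose in KDM4A (1.08 ± 0.05), as did Max (0.89 ± 0.06), partner of MGA in a repressor complex, and Morc3 (0.64 ± 0.04), which ERCC scaling moved to −0.02. In KDM4B Cbx5, the gene of HP1 alpha, fell by 0.52 ± 0.04. Trim28, the corepressor recruited by KRAB zinc finger proteins, rose in KDM6A (0.27 ± 0.03), with the DNA methyltransferase gene Dnmt3b (0.42 ± 0.06). In KDM6B the rises were of Dnmt3a (0.57 ± 0.05), Cbx1 (0.33 ± 0.05) and Dnmt3l (0.33 ± 0.05), of which ERCC scaling put Cbx1 and Dnmt3l at −0.05.

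Summed markers of other lineages differed between del-IDR and FL in each demethylase, though not for every lineage nor always in the same direction. The 4 primitive endoderm markers summed to 29.96 and 30.6 CPM in KDM4A del-IDR against 10.2 and 10.4 CPM in FL, and to 13.4 and 13.9 CPM in KDM4B del-IDR against 7.07 and 7.84 CPM in FL. The 4 trophectoderm markers summed to 54.4 and 56.4 CPM against 22.1 and 22.3 CPM in KDM4A, and to 25.4 and 25.6 against 13.3 and 13.5 CPM in KDM4B, with Cdx2 at most at 0.205 CPM and Tfap2c, which stem cells also express, at 7.62 to 45.8 CPM over all libraries. The 4 neural markers summed to 27.8 and 30.1 CPM in KDM4A del-IDR against 24.1 and 25.2 CPM in FL, and in KDM4B the order was opposite, at 23.5 and 26.3 against 32.1 and 32.3 CPM. In KDM6B the endoderm sums were 20.7 and 22.9 against 18.03 and 19.6 CPM, the trophectoderm sums overlapped (53.4 and 55.3 against 54.3 and 58.3 CPM), and the neural sums were 34.1 and 34.8 against 26.5 and 27.1 CPM. In KDM6A the endoderm sums were 7.87 and 9.78 CPM in del-IDR against 9.90 and 10.3 CPM in FL. The neural sums there were 21.6 and 21.9 against 22.9 and 23.2 CPM, and the trophectoderm sums overlapped. In bulk RNA fewer cells of a type and less RNA per cell cannot be told apart. The part of these markers in the ERVL-MaLR changes was not tested.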

How the data were processed

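Chromatin-associated RNA of 16 libraries was analysed from 2 tables of raw counts deposited by the authors, reads per gene and reads per single repeat copy. Per the file headers featureCounts 2.0.3 made them without strand, with 30 as the lowest mapping quality, counting each read of a pair and leaving out reads that match several places or features. Picard, SAMtools, HISAT2, featureCounts, MACS2 and the build GRCm39 are named in the submitters' processing notes. The aligner's version is not given in the sources used here. Per the labels' protocols rRNA was depleted and the kit was stranded. Symbols came from GENCODE M21 by Ensembl identifier (52000 of 56941 genes matched). ERCC reads were kept out of library sizes.

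ERVL-MaLR copies were counted as inside when they overlapped a gene span. Sums by family and location, genes and single copies were each tested with edgeR 4.0.16 in R 4.3.3. Library sizes came from TMM over genes, and features were filtered with filterByExpr (minimum count 10). Each kind had 1 quasi-likelihood fit over the 16 libraries (8 means, so 8 residual degrees of freedom). The fit was robust for sums and genes but not for single copies. Benjamini-Hochberg adjustment was over all features, with a threshold of 0.05. "Rose" and "fell" mean past that threshold in del-IDR against FL, and SE is the standard error of a log2 fold change. Log2 ratios of outside to inside reads (0.5 added, families with at least 100 reads on average) were tested with limma 3.58.1. Exact tests of 2 against 2 libraries cannot go below p = 0.33. The steps were tested on simulated data. Alternatives included DESeq2 1.42.0, ERCC scaling, a replicate block and leaving out each library.

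Copies were named by rule: the 3 highest mean levels outside and inside, and in each contrast and location the 3 called copies that rose most and the 3 that fell most, if the higher group had 0.5 CPM or more and the groups did not overlap, 1 per gene or run. Of the regulators the smallest p-values were named, 6 in KDM4A and 3 in each other contrast. The text gives part of them. On chromosome 18 neither copies nor host genes were considered for naming. The copies, lists and rules were chosen with earlier results of these data known. No genome of the copies' build was used here, so sequences are given for gene starts only.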

Additional observations from a re-analysis of the deposited data

Results flagged for a closer look

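The deletion effect on summed ERVL-MaLR reads differed between related demethylases, by the test of the difference in 1 fit (edgeR). KDM4A minus KDM4B was −0.63 on the log2 scale outside and −0.12 inside gene spans, and KDM6A minus KDM6B was 0.26 outside and 0.45 inside. In all 4 cases the deleted and full-length libraries of each demethylase did not overlap. With library sizes from repeat family sums the differences were −0.50 and 0.0076 for KDM4A minus KDM4B and −0.13 and 0.059 for KDM6A minus KDM6B, so the outside difference of the last pair changed sign. With other repeat families the median of the same differences was −0.62, −0.13, 0.19 and 0.40.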

How the results depend on the processing

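Of the results that answer a comparison, 318 of their values under other settings kept direction and side of the threshold (counts: within 1.5 times), 14 fell short of the threshold, 9 changed sign and 40 counts moved. The cause was not tested, except that counts of copies at least 10 kb from genes rest on fewer copies and fits without a library on fewer samples. With TMM over repeat family sums in place of genes, the change inside was 0.0109 in KDM4A, −0.0465 in KDM6B, 0.00331 in KDM4B and 0.0129 in KDM6A, and outside 0.0483 in KDM6A and 0.18 in KDM6B (adjusted p = 3.9e-05, edgeR). The differences became 0.00758 (KDM4A minus KDM4B inside), −0.13 (KDM6A minus KDM6B outside) and 0.0595 (inside). With the other repeat reads of the same location as library size, KDM4B stood at −0.0863 outside and −0.0115 inside, KDM6A at −0.0122 and 0.0108, and KDM6A minus KDM6B outside at 0.15. ERCC scaling gave −0.11 and −0.14 in KDM6A outside and inside, total gene reads 0.0428 inside, and the 4 libraries of the contrast alone 0.10 and 0.0654. At least 100 kb from genes KDM6A had 0.11, KDM6B 0.0183 and their difference 0.0897, and at least 10 kb away KDM6B had −0.0473.

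Under ERCC scaling the copies called higher and lower were 42 and 7614 outside and 422 and 26730 inside in KDM4A, 1404 lower outside and 453 and 4697 inside in KDM4B, 6 and 30 outside and 13 and 67 inside in KDM6A, and 1345 lower outside and 15562 lower inside in KDM6B. Regulators became 3 and 36, 2 and 29, 2 and 24, and 1 and 36, and genes that start in a copy 6 and 274 in KDM4A, 43 higher in KDM4B, 7 and 77 in KDM6A and 7 and 169 in KDM6B. Morc3 in KDM4A turned to −0.0165, Cbx1 in KDM6B to −0.0544 and Dnmt3l to −0.0476. At least 10 kb from genes 53 and 1531 copies were called in KDM4A, 118 and 455 in KDM4B, 16 higher in KDM6A and 42 and 45 in KDM6B. Without filterByExpr 14 copies outside and 29 inside were lower in KDM6A.

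Without 1 library, sums outside ranged from −0.95 to −0.92 in KDM4A, −0.32 to −0.29 in KDM4B, 0.098 to 0.12 in KDM6A and −0.17 to −0.15 in KDM6B, and inside from −0.31 to −0.27, −0.18 to −0.15, 0.0547 to 0.0951 and −0.39 to −0.37. Called copies outside were 76 to 89 higher and 2636 to 3149 lower in KDM4A, 127 to 142 and 396 to 517 in KDM4B, 4 to 11 and 0 to 1 in KDM6A and 32 to 45 and 65 to 115 in KDM6B. Inside they were 1250 to 1381 and 6548 to 7570, 313 to 344 and 982 to 1192, 7 to 21 and 1 to 7, and 36 to 54 and 1222 to 1877. Regulators lower were 7 to 12 in KDM4A and 0 to 4 in KDM6B, and in KDM6A 5 to 11 rose and 0 to 6 fell. Of genes that start in a copy, 15 to 19 rose and 9 to 18 fell in KDM6A. In the chromosome 12 cluster 1 to 2 fell in KDM6A and 0 to 2 rose in KDM6B. A lone library is assumed to vary like the other groups. Called copies that held in every such fit were 33.2% inside in KDM4A, 26.4% outside and 21.1% inside in KDM4B, 11.3% outside and 10.8% inside in KDM6B, and 1 of 32 outside and 3 of 73 inside in KDM6A.

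Replicate numbers were not treated as pairs: deviations of libraries of the same number correlated at 0.12 in KDM4A, 0.13 in KDM4B and 0.14 in KDM6A but at −0.00047 in KDM6B, and the labels name no shared batch. With a replicate block 18 copies outside were lower and 109 and 31 inside higher and lower in KDM6A, and no call of a sum changed. Depth limits single copies most: the group totals behind named copies are often under 100 reads.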
